A study of Mus musculus with 5 samples.

Results

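The cells described here were taken as proximal tubule cells of the S1 segment, the first stretch of the tubule behind the glomerulus. They were chosen on measured counts in single-cell RNA-seq of the mouse kidney, among droplet barcodes with at least 3000 unique molecular identifiers (UMIs), at least 200 genes and at most 25% of UMIs on mitochondrial genes, called eligible below. A member had at least 2 UMIs of Slc5a2, at most 1 of Slc12a1, and 0 of Slc7a13, Havcr1, Mki67 and Ptprc. This gave 7977 barcodes of 37382 eligible ones and of 10474594 in the whole matrix. The series compared kidneys of sham-operated mice with kidneys collected 1, 3, 14 and 28 days after unilateral ischemia-reperfusion (UIR) of the left kidney, 1 sample for each of the 5 conditions. The mice were male C57BL/6J by the methods, carried no named allele, and 3 of them were pooled in each kidney sample. The methods speak of more matrices than that, and the deposited matrix joins 5 libraries, told apart only by the number at the end of each barcode. No source used here ties that number to a condition, so the libraries are named 1 to 5, no time point is compared, and intervals cover counting error only.

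Proximal tubule cells take back most of what the glomerulus filters, and their transporters change from the S1 through the S2 to the S3 segment. In S1, glucose enters from the lumen through the high-capacity carrier Slc5a2 (SGLT2) and leaves through Slc2a2 (GLUT2), whereas the low-capacity carrier Slc5a1 (SGLT1) works further down. The cells also recover phosphate, amino acids, bicarbonate and filtered protein, make the creatine precursor guanidinoacetate through Gatm, and are a site of injury after ischemia.

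Markers that the selection did not use were checked first. Slc5a12, a lactate carrier, had a UMI in 86.5% of members and, with every barcode thinned to 3000 UMIs, in 69.4%. In leukocyte barcodes (Ptprc at least 2 UMIs), which should lack it, these shares were 15.1% and 9.55%, at a median of 5515 UMIs against 6351 in members. Slc34a3, a sodium-phosphate carrier, had a UMI in 36.8% of members and 5.95% of leukocyte barcodes, or 21.8% and 2.74% after thinning. Gatm had one in 97.5% and 48.0%, or 92.1% and 33.3% after thinning. Leukocyte barcodes cannot tell the S1 segment from later ones. In the S3 and Slc22a6-positive barcodes defined below, Slc5a12 had a UMI in 2.14% and 18.4% after thinning. Slc34a3 had one in 1.10% and 2.15%, and Gatm in 28.5% and 64.3%. On these 3 markers the data did not go against the S1 name for the members as a whole. Members with less Slc34a3 and more Slc22a6 are described at the end. The labels also give the cell type as Goblet cell, and the members did not carry its markers. In them 6 goblet cell genes (Muc2, Tff3, Fcgbp, Clca1, Spdef and Agr2) summed to 0.327 counts per 1000000 UMIs (CPM). At least 2 of the 6 were at 0 in each library. The members were chosen for Slc5a2, so this value does not bear on the label for other barcodes.

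The selection itself sets how pure the members are. Of 1278 leukocyte barcodes, 122 (9.55%) carried at least 2 UMIs of Slc5a2, and so did 25 of 343 thick ascending limb barcodes (7.29%). The clauses against other cells took 2920 of the 10897 eligible barcodes with enough Slc5a2, most often for Slc7a13 (1489 barcodes) and Havcr1, the injury marker KIM-1 (1028 barcodes, 836 of them in library 3). Among the members, 758 (9.50%) carried 3 or more UMIs of 42 marker genes of other kidney and blood cells, 15.4% in library 3 and 3.96% to 7.84% in the others. Just inside the limit, 2157 barcodes with 2 UMIs of Slc5a2 had 388 CPM of Slc5a12, 47.6 of Slc34a3 and 1175 of Gatm. Just outside it, 2951 barcodes with 1 UMI had 266, 27.1 and 873 CPM.

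Libraries 1 to 5 held 830, 1415, 3196, 1718 and 818 members. The share of eligible barcodes was 14.0% in library 1 (95% exact binomial interval 13.1 to 14.9), 21.6% in library 2 (20.6 to 22.6), 26.7% in library 3 (25.9 to 27.5), 26.8% in library 4 (25.8 to 27.9) and 12.5% in library 5 (11.7 to 13.3). Libraries 3 and 4 lay together above the rest, and their intervals overlapped. The limits took unequal parts of the libraries. Of eligible barcodes with at least 2 UMIs of Slc5a2, 21.4%, 17.5%, 4.58%, 16.1% and 30.3% in libraries 1 to 5 had a UMI of Slc7a13. The mitochondrial limit left out another 232, 305, 478, 703 and 799 barcodes with that much Slc5a2. The part of these limits in the shares was not tested. Members had a median of 6351 UMIs, 2199 genes and 10.95% mitochondrial UMIs, with library medians of 5988.5 to 7002 UMIs and 9.84% to 12.5%. Among their 7971 barcode sequences, 6 occurred in more than 1 library.

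**Figure D1:**
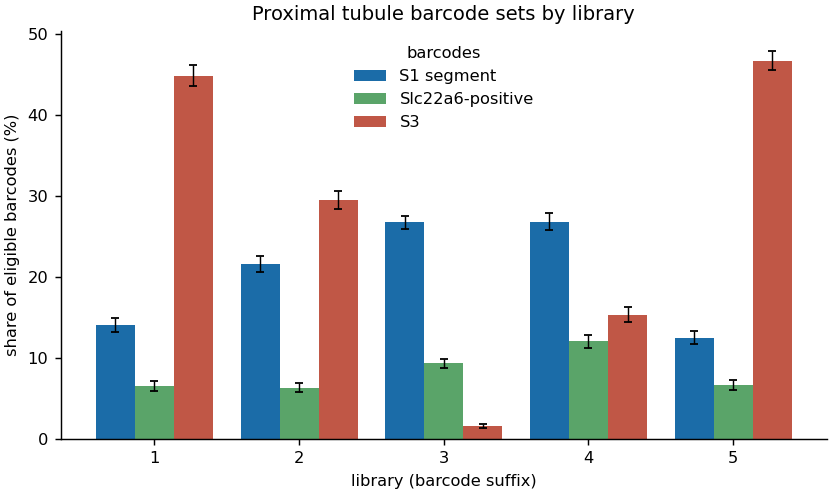
Share of eligible barcodes (%) in each of the 5 libraries for S1 segment barcodes, Slc22a6-positive barcodes and S3 barcodes, with 95% exact binomial intervals for counting error. S1 barcodes ranged from 12.5% in library 5 to 26.8% in library 4, and S3 barcodes from 1.56% in library 3 to 46.7% in library 5.

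For comparison, 8816 S3 barcodes were taken by the same limits but with 0 UMIs of Slc5a2 and at least 2 of Slc7a13, an S3 amino acid carrier. They made up 44.9%, 29.5%, 1.56%, 15.3% and 46.7% of libraries 1 to 5. Library 3 thus held 3196 of the S1 barcodes but 186 of the S3 barcodes. For several results the range within the 5 libraries or a value with the libraries weighted equally is therefore given. Other ratios are pooled and mix the libraries unequally. A further 3115 barcodes with 0 UMIs of Slc5a2 and Slc7a13 and at least 2 of Slc22a6, a carrier of organic anions, are called Slc22a6-positive. They stood in for the middle of the tubule, although the other S2 segment genes marked them weakly. Slc13a3 and Slco1a1 were higher in them than in S1 by the limit used here. Slc13a3 was so only just (191 against 383 CPM, and not called in 8 of 16 other settings). Slc22a8 was not, and Slc22a7 was too low to be tested. Slco1a1 and Slc22a7 were higher in S3 than in this set. For Slco1a1 the log2 ratio of S1 was -6.07 to S3 and -3.63 to this set. A gene was called where the ratio of CPM + 1 was at least 2-fold over the pooled barcodes and had the same sign in each library, among genes at 10 CPM or more in either set. Ratios written as times are of CPM without the added 1, so for genes near 0 they exceed the log2 ratios, which include it. Of 7914 genes set against S3, 450 (5.69%) were called higher in S1 and 295 (3.73%) lower. Of 7842 set against the Slc22a6-positive barcodes, 158 (2.01%) were higher and 137 (1.75%) lower. Counts for the gene lists below are to be read beside these shares. The barcodes were sorted on counts and the libraries are not replicates, so these calls describe sizes and no test was made.

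All 3 S1 markers that played no part in the selection were higher in S1 than in either set, with a median log2 ratio to S3 of 4.30 where the median over all genes was 0.14. Slc5a12 stood at 439, 606, 422, 397 and 512 CPM in libraries 1 to 5. That was 59.8 times the 7.73 CPM of S3 (95% counting interval 55.1 to 65.0; log2 4.24 to 6.35 within libraries), and 4.73 times the Slc22a6-positive level. Slc34a3 stood at 140.5, 108, 39.4, 96.9 and 149.6 CPM, 25.1 times S3 (22.1 to 28.5). Gatm, the enzyme of the first step of creatine synthesis, stood at 2967, 1772, 808, 2044 and 2585 CPM, 10.8 times S3 (10.6 to 11.0). Slc5a12 kept within a narrow band, while Slc34a3 and Gatm were lowest in library 3.

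**Figure D2:**
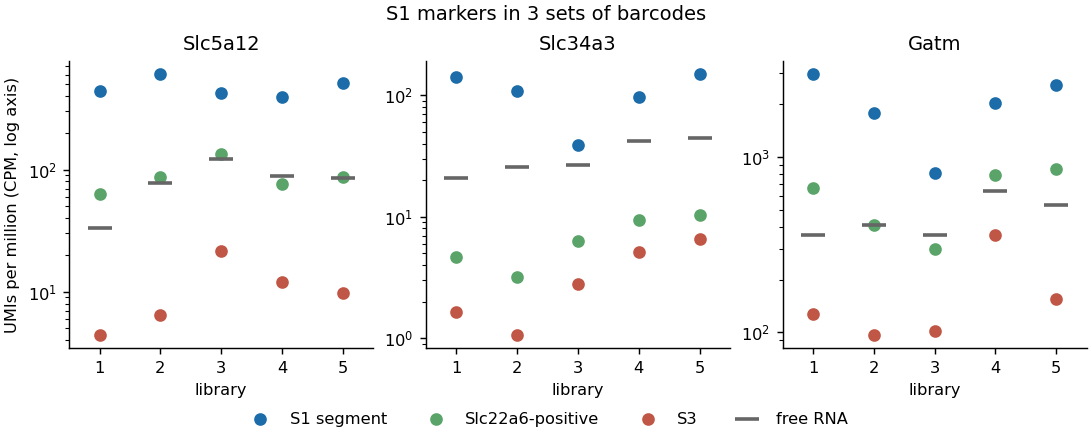
CPM (log axis) of Slc5a12, Slc34a3 and Gatm in the S1, Slc22a6-positive and S3 barcodes of each library (points), beside the level in barcodes of 100 UMIs or fewer, taken as free RNA (dashes). S1 is the highest of the 3 sets in every library for each gene, and Slc34a3 in library 3 (39.4 CPM) comes nearest to the free RNA (26.6 CPM).

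Slc5a2 lies on chr7:128265657-128272430 of GRCm38 (plus strand), Slc5a12 on chr2:110597298-110647779 (plus strand), Slc34a3 on chr2:25228898-25234364 and Gatm on chr2:122594467-122611303 (both minus strand). For the last pair, the 250 bases before the RefSeq start site follow, 5′ to 3′ on the minus strand (GRCm38.p6). Of these markers, only that pair had a RefSeq promoter sequence at hand. The gene coordinates are from GENCODE, whose Slc34a3 and Gatm genes begin before the RefSeq start sites, within the bases shown.
Slc34a3 (chr2:25234235-25234484): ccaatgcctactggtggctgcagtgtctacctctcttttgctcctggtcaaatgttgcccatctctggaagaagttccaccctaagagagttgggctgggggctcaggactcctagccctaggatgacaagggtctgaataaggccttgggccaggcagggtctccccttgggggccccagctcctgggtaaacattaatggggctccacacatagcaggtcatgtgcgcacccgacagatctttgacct
Gatm (chr2:122611278-122611527): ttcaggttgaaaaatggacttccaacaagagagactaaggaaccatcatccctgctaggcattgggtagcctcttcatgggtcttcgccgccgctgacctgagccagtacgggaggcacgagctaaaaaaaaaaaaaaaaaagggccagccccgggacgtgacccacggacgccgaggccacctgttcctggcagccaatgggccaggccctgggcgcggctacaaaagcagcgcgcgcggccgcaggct

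Glucose handling split by carrier. Of 9 tested genes of glucose transport and gluconeogenesis outside the selection, 1 was called higher in S1 than in S3 and 2 lower. The higher gene was Slc2a2, the exit carrier of the blood side, at 261 CPM in S1 and 86.0 in S3, 3.04 times (2.95 to 3.13). Its log2 ratio was 1.14 to 1.91 within libraries, and it was not called against the Slc22a6-positive barcodes (1.63 times). Slc5a1, the low-capacity glucose carrier, stood at 2.48, 1.43, 4.11, 5.22 and 9.40 CPM in libraries 1 to 5 of S1. The S3 level of 39.8 CPM was 9.52 times higher (8.35 to 10.9). Slc5a10, a mannose and fructose carrier, was 8.34 times higher in S3 (7.86 to 8.85), and both genes were also lower in S1 than in the Slc22a6-positive barcodes. In S1 both lay below the free RNA of the same library, where Slc5a1 reached 7.94 to 16.9 CPM. The gluconeogenic enzymes G6pc and Fbp1 were not called, at 1.36 and 1.05 times the S3 level over the pooled barcodes. Both were lowest in library 3 of S1, which gave 3196 S1 barcodes but 186 S3 barcodes. These pooled ratios thus mix the libraries unequally.

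Among 18 amino acid transporters tested against S3, 6 were called higher in S1 and 3 lower, and the median log2 ratio was 0.13. Slc6a19 (B0AT1), the carrier of neutral amino acids of the brush border, was at 430.1, 419.6, 231, 197 and 393 CPM in libraries 1 to 5 and at 26.9 CPM in S3, 11.0 times (10.5 to 11.5). Slc7a8 (LAT2) and Slc7a7 (y+LAT1), exchangers of the blood side, were 11.9 times (11.2 to 12.5) and 6.94 times (6.68 to 7.22) the S3 level. Their shared heavy chain Slc3a2 was 2.89 times, the aromatic amino acid carrier Slc16a10 (TAT1) 5.61 times and the exit carrier Slc43a2 (LAT4) 4.37 times. Apart from Slc3a2, the same genes were called against the Slc22a6-positive barcodes.

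The 3 lower genes were Slc6a18, Slc6a13 and Slc38a3. Slc6a18 (B0AT3), a brush-border carrier of glycine and alanine, was at 23.4, 26.4, 57.7, 33.1 and 21.0 CPM in S1, and S3 had 287 CPM, 7.32 times more (7.01 to 7.64). S1 was thus high in Slc6a19 and low in Slc6a18, and S3 the other way round. Cltrn (collectrin), a partner protein of both, was not called, at 1.20 times the S3 level. Slc7a9 and Slc3a1, the light and heavy chain of the cystine carrier, missed the limit from opposite sides, at 1.88 and 0.512 times.

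**Figure D3:**
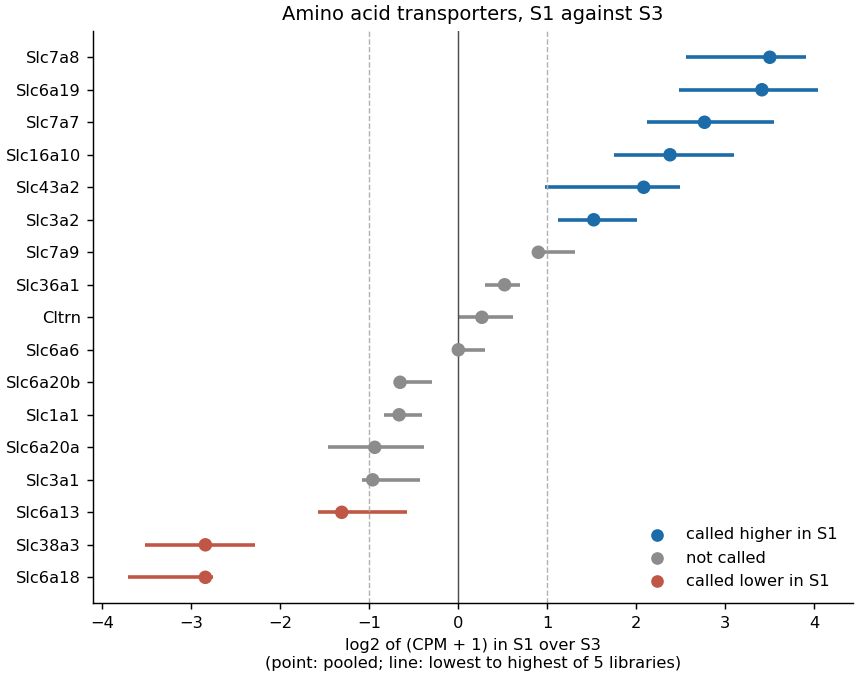
Log2 ratio of CPM + 1 in S1 over S3 for 17 of the 18 amino acid transporters, as the pooled value (point) and the lowest to highest of the 5 libraries (line), with dashed lines at 2-fold. Slc7a8 and Slc6a19 lie at 3.50 and 3.41, and Slc6a18 and Slc38a3 at -2.84.

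Of 2 main phosphate carriers, Slc34a3 was called and Slc34a1 was not. Slc34a3, an S1 marker given above, was the only called gene of 11 in the list of phosphate and vitamin D genes, in either comparison. Over all genes, 5.69% were called higher and 3.73% lower against S3, and 2.01% and 1.75% against the Slc22a6-positive barcodes. The list as a whole was thus near the share of all genes. Slc34a1 (NaPi-IIa), the main phosphate carrier of the brush border, had 3735 CPM in S1 and 3727 in S3, with log2 ratios of 0.18 to 0.37 within libraries. Pth1r (the receptor of parathyroid hormone), Kl (klotho) and Vdr (vitamin D receptor) were at 0.754, 0.946 and 0.870 times the S3 level. Cyp27b1, which makes active vitamin D, was too low to be tested. It stood at 6.12 CPM in S1, with 21.2, 5.65, 1.86, 7.95 and 3.79 CPM in libraries 1 to 5, and at 0.262 CPM in S3. Of the members, 3.17% had a UMI of it against 0.391% of leukocyte barcodes.

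Of 14 sodium, bicarbonate and water genes, 3 were higher in S1 than in S3 and 3 lower, and none was higher than in the Slc22a6-positive barcodes. Car2, the carbonic anhydrase of the cell interior, was at 658, 648, 680.1, 584 and 654 CPM in libraries 1 to 5, 4.90 times S3 (4.79 to 5.01). Car4, the carbonic anhydrase of the cell surface, was 2.41 times higher in S3 (2.34 to 2.48). Slc4a4, the bicarbonate exit carrier, was 2.13 times S3 and the sulfate carrier Slc13a1 2.28 times. Both sat near the limit, and with libraries weighted equally Slc13a1 was at a log2 of 0.75. The lactate carrier Slc5a8 was 16.4 times higher in S3 (15.5 to 17.5) and the water channel Aqp1 3.01 times.

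The receptors that take up filtered protein stood at like levels in S1 and S3. Of 13 endocytosis genes, the receptors Lrp2 (megalin) and Cubn (cubilin) stood at 0.955 and 1.18 times S3, and Amn, the anchor of cubilin, at 1.35 times. The 2 called genes, both higher in S1, encode lysosomal proteases: Lgmn (legumain) at 2.98 times S3 and Ctsb (cathepsin B) at 2.07 times. Ctsb was at a log2 of 0.96 with libraries weighted equally. Neither was called against the Slc22a6-positive barcodes.

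Of 13 carriers of drugs and organic ions, 3 were lower in S1 than in S3 and 1 higher. Slc22a2 (OCT2), Slc22a12 (the urate carrier URAT1) and Slc17a3 were lower than in both sets, by 3.65, 3.08 and 2.99 times against S3. Slc22a2 varied little between libraries of S1, at 93.6, 101, 103, 109 and 93.2 CPM. The exporter Abcc4 was the 1 higher gene, at 3.91 times S3 (3.52 to 4.34). Slc22a6, which chose the other set and is no finding there, was at 250.3 CPM in S1 and 866 in S3.

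Fatty acid oxidation and peroxisome genes had a median log2 ratio to S3 of -0.71, and of 19 tested 8 were lower in S1 and 2 higher. The lower genes included Cpt2, Acadm, Ehhadh, Acot1, Cyp4a10, Cyp4a14 and Pdk4. Acadm, the medium-chain dehydrogenase of mitochondria, was at 331, 325, 321, 380.4 and 403 CPM in libraries 1 to 5 against 881 in S3, 2.56 times lower (2.52 to 2.60). Cyp4a10, a fatty acid hydroxylase, was 4.74 times lower (4.61 to 4.87). Cpt2 came under the limit with libraries weighted equally, at a log2 of -0.86, as did Acot1 without library 3 at -0.66. The higher genes were Acaa2, a mitochondrial thiolase, at 2.58 times and the binding protein Fabp1 at 6.46 times, the latter at 10.0 CPM. Fabp1 was not called in 8 of 16 other settings, among them equal weights (log2 1.72) and a pseudocount of 10 CPM (0.79). Against the Slc22a6-positive barcodes 5 of the 19 were lower and 0 higher.

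Among genes chosen for size alone, Slc5a12, Car3, Ugt2b34, Col8a1 and Slc34a3 had the highest log2 ratios to S3. Car3, a cytosolic carbonic anhydrase, was at 334, 398, 166, 150.2 and 148 CPM in libraries 1 to 5 and 3.98 CPM in S3, 56.0 times (log2 4.66 to 6.50 within libraries). Ugt2b34, a glucuronosyltransferase, was 52.3 times S3 (40.9 to 68.0) and Col8a1, a collagen chain, 91.2 times (61.1 to 143). Osr2, a zinc finger transcription factor, was 20.9 times, the fatty acid binding protein Fabp3 19.1 times, the inositol trisphosphate receptor Itpr2 21.1 times and Gc, the vitamin D binding protein, 21.0 times. Col8a1, Slc34a3, Gc, Car3 and Ugt2b34 were also the 5 highest against the Slc22a6-positive barcodes, followed by F5 (coagulation factor V) at 18.2 times. The list had no common function by its names, and no enrichment was tested.

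At the other end, Slco1a1, an organic anion carrier, was at 4.64, 4.21, 1.99, 2.57 and 8.13 CPM in libraries 1 to 5 of S1 and at 295 CPM in S3, 86.6 times lower in S1 (75.3 to 100.1). In each library it lay below the free RNA, which held 9.56 to 64.6 CPM. Mep1b, a meprin protease of the brush border, was 116 times lower (90.8 to 151) and the organic anion carrier Slc22a7 103 times lower (80.2 to 135). Serpina1a, a protease inhibitor, Acsm3, an acyl-CoA synthetase, and Cyp2d9, a cytochrome P450, were 120.3, 44.2 and 43.0 times lower. With libraries weighted equally the log2 ratio of Mep1b went from -5.94 to -5.17, of Slc22a7 from -5.74 to -4.81, of Cyp2d9 from -5.08 to -4.21 and of Serpina1a from -5.76 to -5.00. For Serpina1a the S3 level itself went from 2.08 CPM in library 3 to 195 in library 1. Kap, the androgen-dependent kidney protein, was at 5519.5, 6711, 3033, 5636 and 5668 CPM in S1 against 61499 in S3, 12.8 times lower (12.7 to 12.8). Its free RNA was at 11452 to 33697 CPM, above S1 in each library. Of 7 S3 genes outside the selection, 6 were lower in S1 (Slc7a12, Slc5a1, Serpina1f, Slc22a30, Slc22a13 and Acy3).

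Hnf4a, a main regulator of proximal tubule genes, was at 0.866 times S3. Of 16 tubule transcription factors, Maf was higher in S1 at 2.76 times S3 (2.71 to 2.81) and 633, 1054, 656, 569 and 775 CPM in libraries 1 to 5. Pax2, a regulator of kidney development, was at 2.29 times and 23.3 CPM, and came under the limit with libraries weighted equally (log2 0.91). None of the list was called against the Slc22a6-positive barcodes. Irx3, a homeobox factor outside that list, was 14.4 times lower in S1 than in S3 (12.5 to 16.6). It was also called lower than in the Slc22a6-positive barcodes, at a log2 of -3.10.

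Genes of tubular injury were higher in S1 than in S3 for 8 of 21 tested and lower for 0, with a median log2 ratio of 1.51. That median is over the pooled barcodes, of which library 3 gave 3196 in S1 but 186 in S3. It was not taken with libraries weighted equally, where the genes below came out lower. Of 4 leukocyte genes tested in the same comparison, S100a9 was called higher in S1, at 30.6 against 2.80 CPM, and the median log2 ratio was 2.28. S100a9 was not called in 3 of 16 other settings, among them that without barcodes carrying markers of other cells, where its log2 ratio went from 3.06 to 1.65. The ratio of S100a9 was 1.63 with libraries weighted equally, 1.84 without library 3 and 3.75 without library 2, and was still called in these. The part of leukocyte RNA in the injury values was not tested. Against the Slc22a6-positive barcodes 1 injury gene of 21 was called, Sox4, where 2.01% of all genes were called higher, and the median was 0.15. Sox4 was not called there with a pseudocount of 10 CPM (log2 0.99). Spp1 (osteopontin), a matrix protein of injured tubules, was at 2029.9, 2756, 13905, 4336 and 2862 CPM in libraries 1 to 5 of S1 and at 567 CPM in S3. Library 3 was far above the rest. The pooled log2 ratio was 3.70 and fell to 2.63 without library 3 and to 2.14 with libraries weighted equally. The fibrinogen chains Fgb, Fgg and Fga were at 36.8, 7.40 and 4.09 times S3. On the log2 scale of CPM + 1, Fgb was at 4.21, and at 3.20 with equal weights. The transcription factor Sox4 was at 13.5 times (11.8 to 15.5), with a log2 of 1.95 to 3.70 within libraries and 2.62 with equal weights. Krt18, a keratin, was at a log2 of 1.93, and at 1.29 with equal weights, and Sox9 and the adhesion molecule Icam1 fell from 1.20 to 0.78 and from 1.07 to 0.96. Barcodes with a UMI of Havcr1 were left out of all 3 sets, so this list describes cells without detected KIM-1.

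Stress genes gave a mixed picture. None of 11 heat shock genes was called against S3, with a median log2 ratio of -0.54. Of 13 immediate early genes, Fos, Ier3 and Klf6 were higher, Fos at 2.02 times and under the limit in 10 of 16 other settings. Ier3 went from a log2 of 1.38 to 0.73 with libraries weighted equally and to 0.93 without library 3, both under the limit. Of 13 metallothionein and Nrf2 genes, Mt1, Mt2, Gsta2 and Gpx3 were higher and Nqo1, Gclc and Gstm1 lower. Gpx3, the secreted glutathione peroxidase, was at 15839 CPM in S1, 3.18 times S3, with 22892, 17799, 13499.6, 15142 and 15368 CPM in libraries 1 to 5. Nqo1, a quinone reductase, was 3.39 times lower in S1 (3.15 to 3.65), and was lower than in the Slc22a6-positive barcodes too. Mt1 and Mt2, metal-binding proteins, went from log2 3.17 to 1.61 and from 3.04 to 0.61 with libraries weighted equally, and in each library their free RNA lay above S1. Of 8 MHC and interferon genes, Ifi27 was higher than in both sets, at 6.96 times S3 (6.49 to 7.47).

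Between libraries, 1177 of 8355 genes (14.1%) differed at least 2-fold from lowest to highest with intervals apart. The count was 655 without library 1, 706 without library 3, 547 with a pseudocount of 10 CPM and 1953 at no more than 10% mitochondrial UMIs. Library 3 was the highest for 441 of the 1177 and the lowest for 233, libraries 1 and 2 were the highest for 309 and 178, and libraries 1 and 5 were the lowest for 382 and 297. Of 24 tubular injury genes tested, 21 differed, 14 with library 3 highest and 12 with library 5 lowest. Clu (clusterin), a chaperone of injured epithelium, was at 22.0, 22.8, 539.6, 71.5 and 11.4 CPM in libraries 1 to 5. After thinning, 31.7% of the members of library 3 had a UMI of Clu, against 1.83% to 4.48% in the others. The median in library 3 was 0 UMIs, the mean was 1.20, and 3.07% of members had 5 or more. A small share of members thus carried much of the Clu level of library 3. Lcn2 (NGAL), an early injury marker, was at 1.33, 3.85, 84.7, 11.3 and 0 CPM. Without barcodes carrying markers of other cells, the log2 ratio of the highest to the lowest library for Lcn2 went from 6.42 to 4.55. In library 3 the free RNA held 925 CPM of Clu and 257 of Lcn2, above the members, and 11346 of Spp1, below them. The leukocyte genes summed to 199 CPM in the members of library 3 and 2.53 in library 5, beside 1221 and 120.3 in the free RNA, and the part of free RNA in these differences was not tested. Gsta1, a glutathione transferase, was at 44.0 CPM in library 3 and at most 0.994 in the others, with 37.1 CPM in the free RNA of library 3.

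Several metabolic enzymes and carriers were lowest in library 3. All 6 creatine and small-molecule genes that differed, of 9 tested, had their lowest value there, as did all 4 that differed of 8 in the glucose list and all 4 of 13 organic ion carriers. Of 6 amino acid transporters that differed 3 were lowest there, and of 8 fatty acid genes 3, as many as in library 2. Over all genes 14.1% differed, and library 3 was the lowest for 233 of these 1177. Library 1 was the highest for 5 of the 6 creatine and small-molecule genes and for 2 of the 4 in the glucose list. Sord, Fbp1, Slc37a4, Slc22a8 and Slc22a18 were not called without library 1, and also not without library 3. Ass1, an enzyme of arginine synthesis, was at 3115, 1759, 564, 2179 and 1990.2 CPM in libraries 1 to 5. Miox, which breaks down inositol, was at 4642, 3178, 1435, 4092 and 3662 CPM. G6pc, the last step of glucose release, was at 876, 903, 351, 499 and 981 CPM, and Slc34a1 at 5384, 4831, 2359, 4258 and 4140.1 CPM. Library 3 stood below the other 4 for each of these genes and for Gatm. Without library 3 none of the 5 reached 2-fold between libraries. For endocytosis 1 of 14 genes differed (Amn), and Slc2a2 varied 1.49-fold and Slc5a12 1.53-fold. Library 3 also had the largest share of members with UMIs of other cells, as given above.

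**Figure D4:**
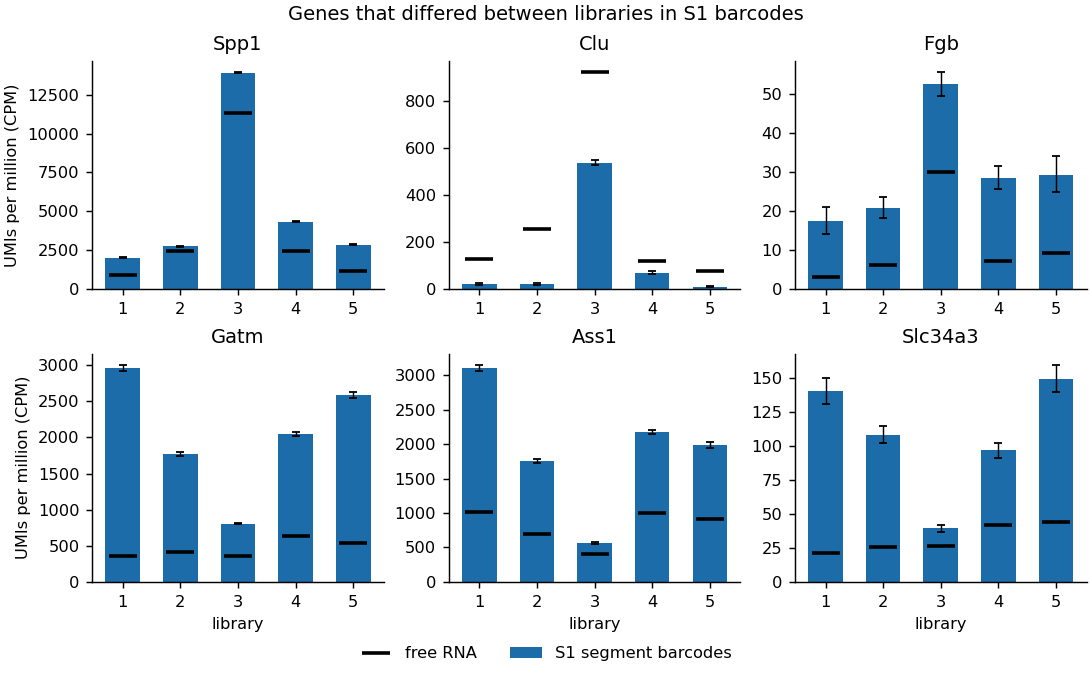
CPM of 6 genes in S1 barcodes of each library (bars, with 95% exact Poisson intervals for counting error) beside the free RNA of the library (black lines). Spp1, Clu and Fgb are highest in library 3, at 13905, 539.6 and 52.4 CPM, and Gatm, Ass1 and Slc34a3 are lowest there, at 808, 564 and 39.4 CPM. The bars pool the barcodes of a library and do not show the spread between them. For Clu, 31.7% of the barcodes of library 3 had a UMI after thinning.

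The MHC list had another order. Of 8 tested genes 5 differed, all lowest in library 5 and 4 highest in library 2. Cd74, the chain that guides class II proteins, was at 246, 264, 53.1, 69.5 and 33.8 CPM, and H2-K1, a class I protein, at 176, 171, 86.7, 109.7 and 78.8 CPM. Libraries 1 and 2 stood above the other 3 for both. Free RNA of Cd74 was at 906, 575, 125, 133 and 62.2 CPM, above the members in each library.

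Members also varied among themselves. With each thinned to 3000 UMIs, they were grouped by Slc5a2 count, which the selection used, so the grouping is a description. From 0 to 4 or more UMIs, Slc34a3 went from 51.5 to 161 CPM, Gatm from 1238 to 2275 and Slc7a8 from 162 to 312. Slc22a6 went from 340.5 to 135 CPM and Kap from 7171 to 2082, while Lrp2 was at 850.4 and 906. Spp1, although higher in S1 than in S3, went from 8791 to 4922 CPM over all libraries. The groups mix libraries unequally, since 49.3% of the members of library 3 had 0 or 1 UMI against 31.6% to 36.5% in the others. They also differ in depth before thinning, on which members were chosen. Members with 0 or 1 UMI had a median of 7110 UMIs against 5760 in those with 3 or more. The former were deeper in each library, and the part of depth in the gradient was not tested. Between members with 0 or 1 and with 3 or more UMIs, Slc34a3, Gatm and Slc7a8 were higher in the latter and Slc22a6 and Kap lower in each of the 5 libraries. Spp1 did not keep its pooled direction, being lower in the latter in library 3 (13441 and 12344 CPM) and higher in the other 4 libraries.

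**Figure D5:**
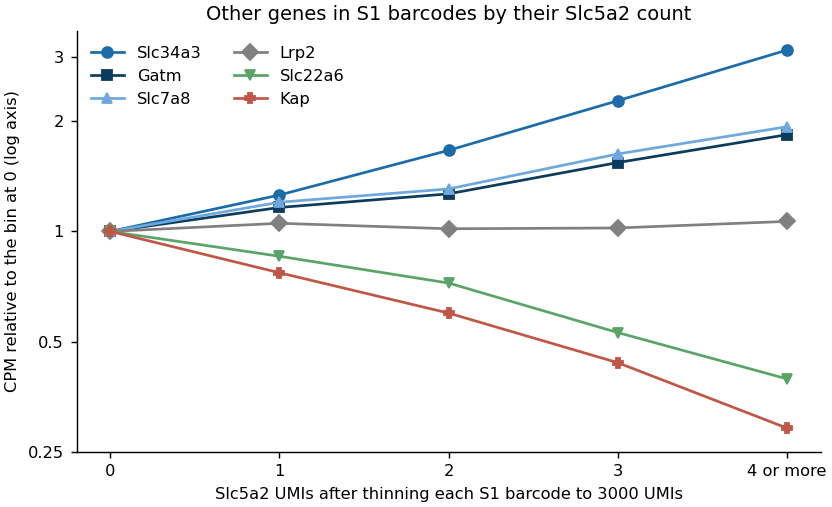
CPM of 6 genes in S1 barcodes grouped by their Slc5a2 UMIs after thinning to 3000 UMIs, relative to the group with 0 (log axis). The groups hold 1023, 2250, 2243, 1226 and 1235 barcodes, and Slc34a3 climbs to 161 CPM, Kap drops to 2082 CPM and Lrp2 stays near its start.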

How the data were processed

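Per the labels, cells from kidneys of 5 conditions, each pooled from 3 mice, were run on a droplet platform. The authors aligned reads to mm10 with Cell Ranger 6.0 (6.0.1 in the file header) and deposited raw UMI counts of 32285 genes for every barcode of 5 joined libraries. Here, counts were summed over chosen barcodes per library and given as CPM, with exact 95% intervals that cover counting error only. UMIs of 3′ ends were not scaled by length, so levels are compared within a gene. Calls and log2 ratios used log2(CPM + 1), and ratios written as times used CPM alone. The members, comparison sets and gene lists were chosen with earlier results of these data known. Named genes came from the lists or from the 15 highest and 15 lowest ratios to S3, the 10 highest and 10 lowest ratios to Slc22a6-positive barcodes, the 15 largest differences between libraries and the 15 highest levels. No doublet caller was run; leaving out barcodes with markers of other cells was an alternative. Alternatives also covered depth, mitochondrial share, limits of the selection, scaling, pseudocount, low levels and each library. The code was tested on simulated data. Promoters came from RefSeq. Some genes of the lists are counted but not reported here by name. Python 3.11.15, numpy 2.4.6, scipy 1.17.1, pandas 2.3.3 and matplotlib 3.10.9 were used.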

Additional observations from a re-analysis of the deposited data

How the results depend on the processing

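The libraries are not tied to conditions and are not replicates, so every value is a description. Depth bears on the counting error and also on who is a member, as the share on thinned counts shows. Conditions could not be paired or compared because no label gives the libraries a condition or replicate number. The sets of barcodes come from the same libraries and were compared within each library as well as pooled. Ratios written as times are pooled. The share of S1 barcodes (21.3%) was 20.1% at no more than 10% mitochondrial UMIs, 29.2% from 1 UMI of Slc5a2, 11.0% from 4, 23.5% without the limit on Havcr1, 13.9% on thinned counts, 23.8% with barcodes of other lineages left out, and 18.8% to 23.2% without 1 library. The median log2 ratio of the markers to S3 (4.30) was 4.01 at the mitochondrial limit of 10%, 4.04 and 4.63 from 1 and 4 UMIs of Slc5a2, 4.61 with libraries weighted equally, 3.35 with a pseudocount of 10 CPM, and 3.95 to 4.74 without 1 library. Genes higher than in S3 (450.0) numbered 253 with that pseudocount, 824 with no limit on low genes, and 418 to 517 without 1 library. Genes lower than in S3 numbered 286 to 311 without 1 library. Against the Slc22a6-positive barcodes, 158 genes higher became 78, 319, and 137 to 214, and 137 lower became 78 with the pseudocount and 128 to 152 without 1 library. Between libraries, 1177 genes became 1953 at the mitochondrial limit of 10%, 547 with the pseudocount, 2564 with no limit, and 655 to 1045 without 1 library, where 655 was without library 1 and 706 without library 3. The cause of these shifts was not tested. Of named genes called against S3, 75 of 92 were called in all 16 alternatives, and of those called against the Slc22a6-positive barcodes 37 of 44. Of 101 called between libraries 29 were called in all 15. None of the genes called against either set changed sign in these alternatives; named genes that were not called were not followed through them.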

Other observations

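Members differed in nuclear RNA, in a split chosen after the values were seen. Malat1, a long RNA that stays in the nucleus, had fewer than 10 UMIs in 675 members (8.46%) after thinning to 3000 UMIs, between 5.38% in library 3 and 12.4% in library 2. These members had a median of 18.3% mitochondrial UMIs against 10.6% in the rest. The nuclear RNA Neat1 stood at 28.6 CPM in them and 1898 CPM in the rest, and the immediate early genes Fos and Jun at 116 and 128 CPM against 2194 and 3333 CPM. Slc5a12 was at 189 against 527 CPM and lower in each library, whereas Gatm was at 1968 against 1622 CPM, higher in 4 libraries and lower in library 3.

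A second split, by Kap and also chosen after the values were seen, set apart members with 10 or more UMIs of it after thinning. They were 1941 (24.3%), between 20.6% in library 3 and 28.1% in library 4. Slc22a6 stood at 538 CPM in them against 149 CPM in the rest, and Slc5a10 at 57.5 against 7.79 CPM. Slc34a3 was at 36.4 against 109.8 CPM and Slc7a8 at 127 against 255 CPM. Each of these 4 differences had the same direction in all 5 libraries. Slc34a3 and Slc7a8 were also lower, and Slc5a10 higher, in the Slc22a6-positive barcodes than in S1. Whether these members belong to a later segment was not tested.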
